A study of Rattus norvegicus with 8 samples.

Results

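The RNA described here is that of vehicle-treated primary neurons, the control of a study on rat neurons grown from cortical and hippocampal tissue of Sprague Dawley embryos at E18. It was read in the green (Cy3) channel of all 8 two-colour arrays of the series, so 8 of the 16 channels are described, and the 8 treated (Cy5) channels are not used. After 7 days in vitro the treated partners received 1 µM CAT-SKL, 1 µM ADDL, or both agents in sequence, each for 24 h, and vehicle stood beside them on every array without a dye swap. CAT-SKL is a catalase carrying a signal for import into peroxisomes, and ADDL are soluble oligomers of amyloid-beta. The vehicle itself is not named in the labels, and the design text calls the control untreated. The cultures were neither sorted nor made from a single region, so every value is a mixture of the cells that grew in the dish, and fewer cells of a type cannot be told apart from less RNA per cell.

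Excitatory neurons arise from radial glia of the cortical wall, release glutamate and load it into vesicles with transporters of the Slc17a family. Inhibitory neurons migrate in from the ganglionic eminences below, make GABA with the enzymes encoded by Gad1 and Gad2, and later divide into classes that carry peptides such as somatostatin or Vip. A culture taken before birth also holds the glial progenitors that give rise to astrocytes and oligodendrocytes, and usually few cells from blood vessels, meninges and blood.

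The 5 markers of these classes were each well above background on all 8 arrays, meaning that Agilent's flag for a signal well above the local background was set on at least 50% of the probe's spots. A gene is said to have passed where it was well above background on all 8. Values are log2 of the median spot signal minus the local background, with the arrays quantile-normalised, and triplets give the lowest, median and highest of the 8 arrays, with 0 as the floor for a signal at background. The 8 vehicle channels were counted as 1 sample hybridised 8 times, by a rule on repeated spots that is described with the comparison of the channels. The percentile ranks a gene's brightest probe among 26903 genes and unnamed accessions. It ranks spot brightness and not the amount of transcript, because probes hybridise differently. Tubb3, the neuronal beta-tubulin, read 13.74, 13.84 and 13.93 (percentile 97.5). Slc17a6, a vesicular glutamate transporter of excitatory neurons, read 10.46, 10.54 and 10.56 (percentile 85.3). Gad1, which makes GABA, read 9.05, 9.10 and 9.19 (percentile 76.3), although another probe of this gene averaged 2.39 and was well above background on 1 array. Slc1a3, the glutamate transporter of astrocytes and radial glia, read 11.01, 11.09 and 11.18 (percentile 88.2), and another probe of this gene averaged 7.52. Pdgfra, the growth factor receptor of oligodendrocyte precursors, read 6.93, 6.97 and 7.12 (percentile 60.0). For each of the 5 markers the 8 arrays lay within 0.2 of one another on the log2 scale, and all 5 were present on every array.

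**Figure D1:**
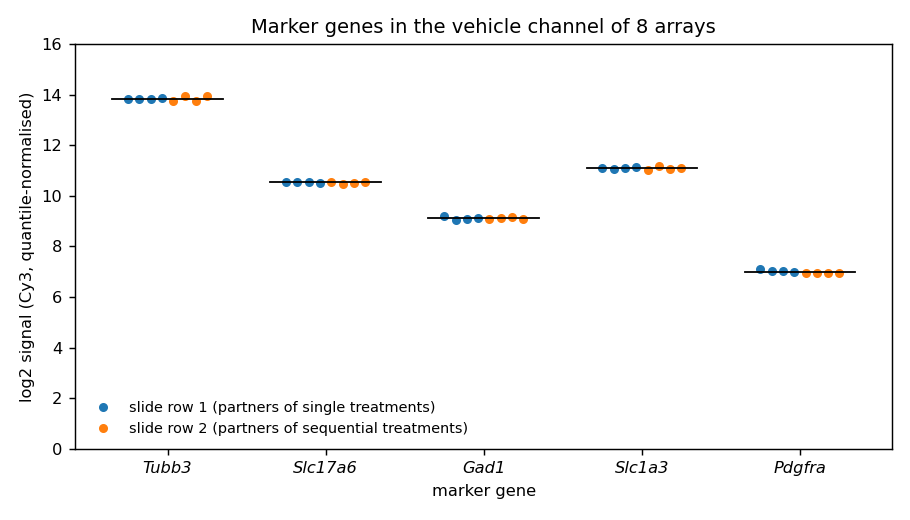
Log2 signal of the 5 marker genes (horizontal axis) in the vehicle channel of each of the 8 arrays (points, with colour giving the row of the slide), with a bar at the median. Each gene's 8 points lie within 0.2 of one another, and the widest spread is that of Tubb3, from 13.74 to 13.93.

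Of 15154 genes with a symbol, 10768 (71.1%) were well above background on all 8 arrays, 2138 on some arrays and 2248 (14.8%) on none. Over these genes the median percentile was 54.4, and these 3 values are the background against which each list below is read. The 30 genes with the brightest probes were led by Actg1, a cytoplasmic actin (16.68, 16.74 and 16.86), and by genes of the ribosome, among them Rpl41, Rplp0, Rpl21, Rpl35, Rpl24, Rps29, Rps23, Rps12 and Rpl37a. Genes of the neuronal cytoskeleton and growth cone stood beside them. Tuba1a, the alpha-tubulin of growing neurons, read 16.15, 16.23 and 16.30, its beta partner Tubb2b read 15.82, 15.85 and 15.91, and Basp1, a growth cone membrane protein, read 15.90, 15.98 and 16.07. Uchl1, a ubiquitin hydrolase abundant in neurons, read 16.04, 16.13 and 16.20, and Nnat, an imprinted gene of the developing brain, read 15.90, 16.02 and 16.05. Others were Ftl1 (ferritin light chain), Ppia (cyclophilin A), Ubb (ubiquitin), Cox6a1 (a subunit of cytochrome oxidase), Gnas (a G protein subunit), Hspa8 (a chaperone), Fabp5 (a fatty acid carrier of neural progenitors and glia), Tmsb4x (which binds actin monomers), Mif (a cytokine), Ceacam9, Twnk and Cyp4a8. In 2 of these, another probe of the same gene was far dimmer: Twnk, a mitochondrial DNA helicase, averaged 15.8 on its brightest probe and 7.31 on another, and Cyp4a8, a fatty acid hydroxylase of liver and kidney, averaged 15.5 and 2.65.

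Genes that were well above background differed from the rest in the sequence around their start. The rule that called a gene well above background did not use this sequence, and whether the sequence bears on expression was not tested. RefSeq (GRCr8) promoters, 250 bases before to 50 bases after the start, were matched by symbol for 12384 of the 15154 genes. The dinucleotide CG, the site of DNA methylation, occurred a median of 20 times in the promoters of genes well above background on all 8 arrays, 5 times for genes on some arrays and 3 times for genes on none. At least 15 of them were present in 67%, 24% and 11.6% of these promoters, against 52.9% of all that were matched. The motif TATAAA, searched on both strands, went the other way, with 8.03%, 18.4% and 25.4%, against 12% of all. The order held along the signal too: over 5 equal ranges of the percentile, from the lowest to the highest, 12.3%, 30.2%, 56.9%, 73.8% and 80% of promoters held at least 15 CG. These are descriptions of genes, which are not independent replicates, and a match to letters is not a binding site. The base composition of the array's probes was not examined.

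**Figure D2:**
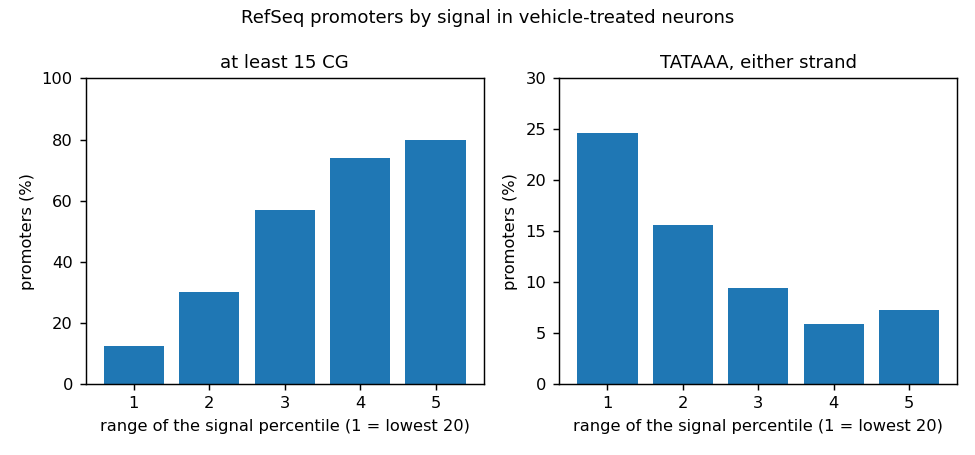
Share of RefSeq promoters (percent, axis from 0) holding at least 15 CG dinucleotides (left) or the motif TATAAA on either strand (right), for genes in 5 equal ranges of the signal percentile in vehicle-treated neurons. The CG share climbs from 12.3% to 80%, and the TATAAA share falls from 24.6% in the lowest range to 5.85% in the range next to the highest and stands at 7.26% in the highest.

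To show what these letters look like, the 100 bases before the start of the 5 markers, of the bright interneuron gene Sst and of 3 genes well above background on no array are given, with each CG and TATAAA in capitals and each promoter read 5′ to 3′ on its own gene's strand (Sst and the last 3 were chosen after their values were seen). They lie at chr19:68365587-68365686 (+, Tubb3), chr1:110348347-110348446 (+, Slc17a6), chr3:75777352-75777451 (+, Gad1), chr2:59557809-59557908 (-, Slc1a3), chr14:33408517-33408616 (-, Pdgfra), chr11:90461446-90461545 (+, Sst), chr1:44470380-44470479 (+, Vip), chr3:143825097-143825196 (+, Lamp5) and chr10:27327235-27327334 (-, Gabra6) of GRCr8.
Tubb3: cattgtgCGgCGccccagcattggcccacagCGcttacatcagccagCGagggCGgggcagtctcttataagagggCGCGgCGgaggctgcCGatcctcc
Slc17a6: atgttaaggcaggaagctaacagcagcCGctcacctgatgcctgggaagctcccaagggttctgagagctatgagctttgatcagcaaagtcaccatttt
Gad1: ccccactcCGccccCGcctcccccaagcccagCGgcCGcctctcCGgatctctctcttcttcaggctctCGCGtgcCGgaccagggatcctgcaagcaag
Slc1a3: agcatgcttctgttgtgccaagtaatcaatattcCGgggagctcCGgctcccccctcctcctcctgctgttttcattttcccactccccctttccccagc
Pdgfra: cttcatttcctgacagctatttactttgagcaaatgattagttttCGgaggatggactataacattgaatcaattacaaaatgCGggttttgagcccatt
Sst: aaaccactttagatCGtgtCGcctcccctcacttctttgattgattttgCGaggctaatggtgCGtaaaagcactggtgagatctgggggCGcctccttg
Vip: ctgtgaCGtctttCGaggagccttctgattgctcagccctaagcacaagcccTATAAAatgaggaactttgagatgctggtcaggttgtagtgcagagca
Lamp5: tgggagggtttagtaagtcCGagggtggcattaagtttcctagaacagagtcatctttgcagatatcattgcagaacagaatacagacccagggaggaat
Gabra6: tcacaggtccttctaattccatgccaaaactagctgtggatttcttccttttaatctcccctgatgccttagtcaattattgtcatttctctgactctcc
Tubb3 and Gad1 held 9 and 8 CG in these 100 bases and Sst held 5, while Vip held 2 with a TATAAA, Lamp5 held 1 and Gabra6 held none. In these 100 bases the pattern did not hold for every marker: Slc17a6 held 1, and Slc1a3 and Pdgfra held 2 each, although all 3 were well above background on every array. The medians above are for the whole promoter of 300 bases. There Slc17a6 held 11, Slc1a3 12, Pdgfra 5, Sst 11, and Tubb3 and Gad1 26 each, against 4 for Vip, 2 for Lamp5 and 0 for Gabra6.

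All 17 measured general neuronal genes were well above background on all 8 arrays, and their median percentile of 86.6 was the highest of the 26 cell class lists. Stmn2, which controls microtubules in growing axons, read 14.98, 15.05 and 15.12 (percentile 99.3), and the microtubule-binding tau gene Mapt read 14.89, 14.93 and 14.96 (percentile 99.2). Gap43, a growth cone protein, read 14.16, 14.29 and 14.37 (percentile 98.3). At the lower end of this list, the synaptic vesicle calcium sensor Syt1 read 7.18, 7.35 and 7.46 (percentile 62.6), the surface protein Thy1 read 5.99, 6.23 and 6.34 (percentile 53.7), the heavy neurofilament Nefh read 5.36, 5.65 and 5.86 (percentile 48.8) and the adhesion gene L1cam read 8.59, 8.62 and 8.69 (percentile 72.7). With a stricter limit, a signal of at least 3 times the local background on all 8 arrays, 16 of 17 remained, against 7969 (52.6%) of all genes with a symbol. For other lists the count under this stricter limit is given where it was smaller by more than 1.5 times.

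Of the genes of glutamatergic neurons, 14 of 15 were well above background on all 8 arrays (median percentile 71.8). Among the brightest were the transcription factors Neurod6 (11.51, 11.57 and 11.67, percentile 90.5), Bhlhe22 (11.48, 11.52 and 11.59, percentile 90.3) and Fezf2 (10.68, 10.75 and 10.87, percentile 86.5), all of postmitotic cortical projection neurons. The exception was Slc17a8, the third vesicular transporter of the family, which was well above background on no array and read 1.26, 2.55 and 3.08. Slc17a7, the transporter that is typical of the adult cortex and is named here after its values were seen, read 5.73, 5.88 and 5.997 (percentile 50.9) on all 8. The kinase gene Camk2a stood at percentile 45.6, the NMDA receptor subunit Grin2b at 48.8 and Tbr1, a factor of deep-layer neurons, at 40.8. Under the limit of 3 times the local background 10 of 15 remained, and Slc17a7 and these last 3 were below it.

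Genes listed for the upper and for the deep layers of the cortex were detected, of which 6 of 12 and 8 of 12 were measured. All measured upper-layer genes passed on 8 arrays (median percentile 83.4). Among them Pou3f3, Inhba, Lhx2, Pou3f2 and Rasgrf2 had medians of 10.98, 10.70, 10.28, 7.72 and 4.79. All 8 measured deep-layer genes passed as well (median percentile 60.0). Nr4a2, a nuclear receptor of the deepest layer, read 11.90, 11.96 and 11.998 (percentile 92.2). Crym, which binds thyroid hormone, read 11.82, 11.88 and 12.001 (percentile 91.8). The remaining deep-layer genes were Fezf2, Etv1, Tle4, Ldb2, Ccn2 and Tbr1, the last 2 with percentiles of 44.2 and 40.8. Genes of hippocampal pyramidal and granule neurons were less uniform, 10 of 13 on all 8. Dkk3, a secreted protein of the Dickkopf family, read 12.79, 12.84 and 12.99 (percentile 95.2) and Bok, a relative of Bcl2, read 11.81, 11.91 and 11.96 (percentile 91.9). At the other end, Prox1, the factor that defines dentate granule cells, was well above background on no array (0.00, 0.95 and 1.76), and Tdo2, a tryptophan-degrading enzyme of granule cells, on 2. Of the markers of Cajal-Retzius cells, the first-born neurons of the cortical surface, 4 of 7 were present on all 8. Calb2 read 7.36 and Reln, which makes the secreted guidance protein reelin, read 6.42, both also expressed by interneurons, followed by Cxcr4 (4.43) and Tp73 (3.97). Lhx1 and Lhx5 passed on 5 and 3 arrays and Ebf3 on none, and 2 of 7 reached the stricter limit.

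Of the genes of inhibitory neurons, 14 of 18 passed on all 8 arrays (77.8%, against 71.1% of all genes). The median percentile of the list was 48.7, against 54.4 for all genes. Slc32a1, which loads GABA into vesicles, read 9.39, 9.55 and 9.64 (percentile 79.5). Satb1, a chromatin organiser of maturing interneurons that is not restricted to them, read 12.61, 12.65 and 12.70 (percentile 94.6). Lhx8, Erbb4, Sox6 and Adarb2 passed on 2, 3, 4 and 6 arrays, and their medians lay between 2.48 and 3.25. The list depended on the limit: 7 of 18 reached 3 times the local background, a smaller share than the 52.6% of all genes. Gad2, which also makes GABA and is named after its values were seen, read 5.54, 5.74 and 5.81 (percentile 49.8). It did not reach that limit on all 8 arrays. Other probes of Lhx6 and Nkx2-1, factors of the medial ganglionic eminence (both named after their values were seen), averaged 1.96 and 0.68, against medians of 6.81 and 4.62 on the brightest.

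Among the genes of interneuron subtypes, several peptide genes were bright and others were not detected. Somatostatin (Sst) read 14.66, 14.80 and 14.91 (percentile 99.0), cholecystokinin (Cck) 13.05, 13.13 and 13.17 (percentile 96.0), the tachykinin precursor Tac1 12.20, 12.27 and 12.32 (percentile 93.4) and neuropeptide Y (Npy) 10.54, 10.64 and 10.81 (percentile 86.0). Cck and Tac1 are also made by excitatory and other neurons. Pvalb, the calcium-binding protein of fast-spiking cells, read 4.14, 4.26 and 4.45 (percentile 37.0) and the nitric oxide synthase gene Nos1 3.94, 4.19 and 4.52 (percentile 36.6), both on all 8 arrays, and neither reached 3 times the local background on all of them. Vip and Lamp5, which mark classes of interneurons that come mostly from the caudal ganglionic eminence, were well above background on no array. Vip read 1.68, 2.26 and 2.95 and Lamp5 0.00, 0.93 and 1.69. For 13 of 15 members the gene passed on 8 arrays, and no member passed on only some of them.

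Genes of neuron types from other brain regions were detected in part. Of 6 genes of serotonergic neurons none passed on all 8 arrays: the tryptophan hydroxylases Tph1 and Tph2 passed on 5 and 0, the serotonin transporter Slc6a4 on 3, and the factors Gata2, Gata3 and Fev on 1, 0 and 0. Their median percentile was 16.8. Catecholaminergic genes were split, 5 of 10 on all 8. Th, the enzyme that starts dopamine synthesis, read 8.79, 8.86 and 9.06 (percentile 74.7), Pnmt, which makes adrenaline, 7.62, 7.64 and 7.87 (percentile 65.4), the vesicular monoamine transporter Slc18a2 7.34, 7.43 and 7.52 (percentile 63.5) and the noradrenaline transporter Slc6a2 5.58, 5.94 and 6.55 (percentile 52.1). The midbrain factors differed. Pitx3, named after its values were seen, read 4.23, 4.47 and 4.92 (percentile 39.0) on all 8 arrays, below 3 times the local background. Lmx1a and En2 passed on no array, and the dopamine transporter Slc6a3 and the enzyme Dbh passed on 6 arrays each. Cholinergic genes passed for 4 of 6, among them Ache, the esterase that degrades acetylcholine (7.83), the vesicular transporter Slc18a3 (5.98) and the synthesising enzyme Chat (4.29). Slc5a7, which takes up choline, passed on 6 arrays and Isl1, a factor of cholinergic and striatal neurons, on 1. Of hypothalamic and thalamic genes 6 of 12 passed, among them the peptide genes Pomc (7.22), Hcrt (6.33), Avp (6.09) and Agrp (5.21), while Pmch, Kiss1 and Sim1 passed on none and Otp on 2. The stricter limit was reached by 3 of 10 catecholaminergic, 1 of 6 cholinergic and 3 of 12 hypothalamic and thalamic genes.

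Transcription factors that mark position along the brain followed, those of the forebrain first. Lhx2, of the cortical primordium, read 10.26, 10.28 and 10.35 (percentile 83.9), Nr2f1, which patterns the cortex, 9.99, 10.01 and 10.16 (percentile 82.4) and Otx1, of deep-layer neurons, 9.82, 9.94 and 10.28 (percentile 81.9). In all, 10 of 13 factors of the telencephalon passed on all 8 arrays, and Six3, Lhx9 and Zic1 passed on 5, 3 and 3. Hox genes, which pattern the hindbrain and spinal cord, passed for 5 of 14 (35.7%, against 71.1% of all genes), with a median percentile of 24.4. Hoxa7 read 6.02, 6.26 and 6.35 (percentile 53.7), and it was the single Hox gene that reached 3 times the local background on all 8. Hoxd4, Hoxb7 and Hoxc5 followed with medians of 4.32, 4.30 and 4.01, whereas Hoxa2 passed on no array and Hoxb3, Hoxb9 and Hoxd9 on 1 each. Striatal genes lay between, 7 of 11, with Foxp1 (11.87, 11.93 and 11.98, percentile 92.0), the phosphodiesterase gene Pde10a (10.86, 10.98 and 11.01, percentile 87.6) and the dopamine receptor gene Drd2 (9.62, 9.71 and 9.76, percentile 80.4) among the brightest, and Ebf1 and Adora2a on no array. Foxp1 and Drd2 are not confined to the striatum, and another probe of Drd2 averaged 5.35, also well above background on all 8 arrays.

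Astrocyte genes passed for 15 of 17 on all 8 arrays (median percentile 64.8), and 14 reached 3 times the local background. Aldoc, a glycolytic enzyme, read 12.57, 12.66 and 12.72 (percentile 94.6), Fabp7, a fatty acid carrier of radial glia, 11.79, 11.85 and 11.88 (percentile 91.7) and Ndrg2 10.60, 10.67 and 10.75 (percentile 86.1). Gfap, the intermediate filament of mature and reactive astrocytes, read 5.01, 5.08 and 5.23 (percentile 44.4), Aldh1l1, a folate enzyme used as an astrocyte marker, 5.74, 5.82 and 5.97 (percentile 50.8), Gjb6, a connexin of mature astrocytes, passed on 5 arrays, and Id3 on none. Radial glia and intermediate progenitor genes passed for 10 of 11 (median percentile 51.8), with Vim (9.54, 9.62 and 9.70, percentile 79.9), Sox2 (9.48, 9.52 and 9.63, percentile 79.3) and the filament gene Nes (8.14, 8.24 and 8.31, percentile 69.5) among the brightest. Under the stricter limit 6 of 11 remained. Gsx2, a factor of the lateral ganglionic eminence, passed on none. Cell cycle genes were there as well, 9 of 10 on all 8 with a median percentile of 59.1. Rrm2, a subunit of ribonucleotide reductase, read 8.74, 8.90 and 9.00 (percentile 74.6) with another probe at 2.48, and Cdk1, the kinase that starts mitosis, read 7.86, 7.94 and 8.00 (percentile 67.1). The exception, the mitotic kinase Aurkb, passed on 5 arrays.

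All 9 measured genes of oligodendrocyte precursors passed on all 8 arrays (median percentile 64.6), and 8 reached 3 times the local background. Olig1 and Olig2, the factors that define the lineage, read 10.01, 10.07 and 10.13 (percentile 82.6) and 8.69, 8.86 and 9.16 (percentile 74.8), another probe of Olig2 averaging 1.89. Tnr, an extracellular matrix protein, read 9.42, 9.45 and 9.52 (percentile 78.8) and Bcas1, of newly formed oligodendrocytes, 9.16, 9.22 and 9.32 (percentile 77.2). The chondroitin sulfate proteoglycan Cspg4 read 6.44, 6.47 and 6.62, the receptor Gpr17 6.17, 6.43 and 6.77 and the factor Sox10 5.65, 5.91 and 6.28. Genes of myelinating cells were less complete, 8 of 12 with a median percentile of 46: the myelin proteins Mbp (9.60, 9.71 and 9.82, percentile 80.5) and Mag (7.05, 7.38 and 7.61, percentile 62.9, another probe averaging 2.04) were at the top, and Ugt8, Cldn11, Mog and Myrf passed on 7, 6, 6 and 7 arrays. The stricter limit was reached by 5 of 12.

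Genes of non-neural cells were detected in part. For microglia, 13 of 18 passed on all 8 arrays, close to the share of all genes (72.2% against 71.1%), but 6 reached 3 times the local background. The fractalkine receptor Cx3cr1 read 10.34, 10.67 and 10.88 (percentile 85.9), Laptm5 7.05, 7.27 and 7.34 (percentile 61.9) and Aif1 6.29, 6.50 and 6.61 (percentile 55.9). Itgam and Ptprc, surface proteins of all brain macrophages, passed on no array, with triplets of 0.00, 0.74 and 2.38 for Itgam and 0.60, 0.85 and 1.45 for Ptprc. Endothelial genes passed for 5 of 11 (median percentile 28.4), the brightest being the glucose transporter Slc2a1 (10.23, 10.27 and 10.35, percentile 83.9), which neural cells also use, and Tie1 and Tek, receptors of vessel walls, passed on none. Mural cells (6 of 11), meningeal fibroblasts (6 of 10), choroid plexus and ependyma (4 of 10) and erythroid cells (3 of 7) had lower shares than all genes, with median percentiles of 32, 35.8, 27.5 and 21.2. The stricter limit was reached by 3 of 11 endothelial, 1 of 11 mural, 1 of 10 choroid plexus and ependymal and 1 of 7 erythroid genes. Dcn, a collagen-binding protein of fibroblasts, read 8.89, 8.91 and 8.98 (percentile 74.9) and Rsph1, of motile cilia, 8.53, 8.57 and 8.67 (percentile 72.3), while Ttr, the main secreted protein of the choroid plexus, passed on none. Hba-a1, a haemoglobin gene, read 9.88, 9.97 and 10.16 (percentile 82.1) with another probe at 2.74, but the haemoglobin genes Hbb and Hba-a3 passed on none and Hbb-bs on 1.

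**Figure D3:**
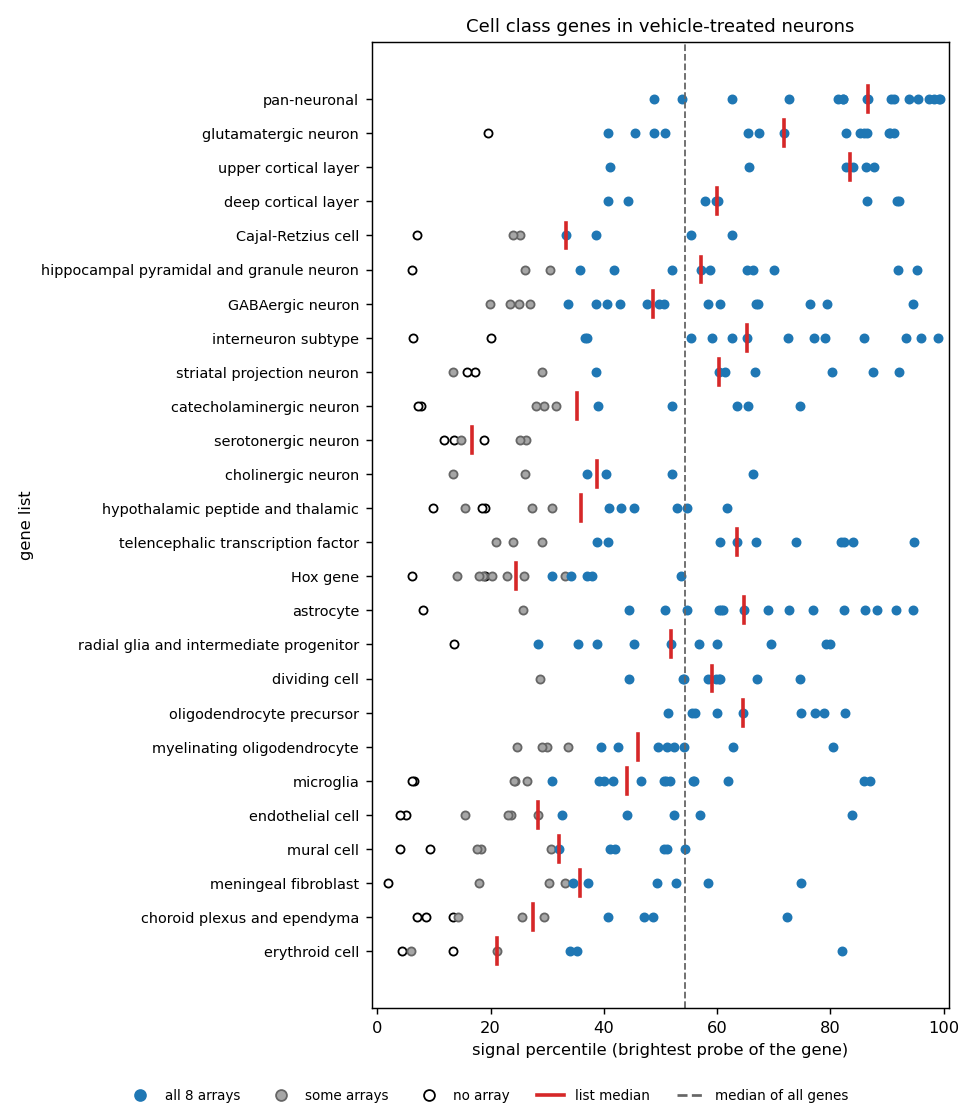
Signal percentile of each measured member (points) of the 26 cell class lists, with filled points for genes well above background on all 8 arrays, grey for some arrays and open for none, a bar at the list's median and a dashed line at 54.4, the median of all genes with a symbol. Pan-neuronal genes sit furthest right and serotonergic and erythroid genes furthest left.

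Among the ionotropic glutamate receptors, which carry fast excitation, all 4 AMPA receptor subunits passed on all 8 arrays. Gria4 read 10.09, 10.20 and 10.21 (percentile 83.2), Gria2, the subunit that limits calcium entry, 9.12, 9.15 and 9.20 (percentile 76.6), Gria3 9.09, 9.12 and 9.22 (percentile 76.6) and Gria1 5.62, 5.72 and 5.81 (percentile 49.8). Of 7 NMDA receptor genes, 6 passed. Grin2d, a subunit of the fetal and early postnatal brain, read 14.15, 14.20 and 14.53 (percentile 98.2), and the obligatory subunit Grin1 6.61, 6.66 and 6.82 (percentile 57.7). Grin3a, Grin2c, Grin2a and Grin2b had medians of 6.59, 6.34, 6.26 and 5.62, and Grin3b passed on 7 arrays. Among the kainate and delta receptor genes, of which 3 reached the stricter limit, Grik5, an auxiliary kainate subunit, read 11.95, 12.002 and 12.06 (percentile 92.4), and Grik2, Grik1, Grid1, Grik4 and Grik3 had medians from 4.13 to 7.06. Among the metabotropic receptors that passed, which signal through G proteins, were Grm4 at 9.70, 9.98 and 10.10, Grm2 at 7.90, 8.12 and 8.28, Grm8 at 7.78, 7.89 and 7.95, and Grm6, known from retinal bipolar cells, at 4.89, 5.01 and 5.37; Grm7, Grm5 and Grm3 had medians of 7.56, 6.84 and 6.47.

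Of the GABA-A receptor subunits, 12 of 19 passed. Gabrb1 read 10.14, 10.18 and 10.21 (percentile 83.3), Gabra2 9.31, 9.41 and 9.45 (percentile 78.4) and Gabrq 8.31, 8.44 and 8.66 (percentile 71.3). The members on no array were Gabra6, the subunit of cerebellar granule cells (0.00, 0.40 and 0.82), the rho subunits Gabrr1, Gabrr2 and Gabrr3, best known from the retina, and Gabrp, of peripheral tissues (Gabrr2 was named after its values were seen). The metabotropic GABA-B receptor was complete, with Gabbr1 at 12.06, 12.24 and 12.39 (percentile 93.2) and Gabbr2 at 12.34, 12.41 and 12.49 (percentile 93.9). Glycine receptor subunits were uneven. Glra2, the fetal alpha subunit, read 13.54, 13.73 and 13.90 (percentile 97.3), the beta subunit Glrb 5.99, 6.13 and 6.27 (percentile 53.0), the adult alpha subunit Glra1 4.99, 5.78 and 6.18 (percentile 49.3), and Glra3 passed on 2 arrays.

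Receptors for acetylcholine and the monoamines followed. Of 16 nicotinic subunits 8 passed (median percentile 35.6), with Chrna1, Chrna4, Chrne and Chrnb4 at medians of 7.14, 7.02, 6.85 and 6.64, and Chrna2, Chrna6 and Chrnd on none. Of 5 muscarinic receptors, Chrm3 read 10.16, 10.24 and 10.29 and Chrm4 9.66, 9.79 and 9.83, Chrm2 and Chrm1 had medians of 4.54 and 4.39, and Chrm5 passed on 2 arrays. Serotonin receptors passed for 7 of 14 (median percentile 30.6). There Htr2c read 7.76, 7.90 and 7.99 (percentile 66.8) with another probe at 2.38, the ion channel subunit Htr3a 6.65, 6.91 and 7.04 (percentile 59.2), and Htr3b, Htr1d and Htr4 passed on none. Of 5 dopamine receptors, Drd2 passed with the values above, Drd5, Drd1 and Drd4 had medians of 5.13, 4.37 and 4.03, and Drd3 passed on 2 arrays. All 9 adrenergic receptors passed, with Adra1b at 9.68, 9.76 and 9.85 (percentile 80.7) and Adra2b at 7.35, 7.45 and 7.69 (percentile 63.9), and 4 of them reached the stricter limit. That limit was reached by 5 of 16 nicotinic, 2 of 5 muscarinic, 2 of 14 serotonin and 1 of 5 dopamine receptor genes, and no test compared the families. The histamine receptors Hrh3, Hrh4 and Hrh1 passed with medians of 9.96, 7.72 and 3.97.

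Among the remaining receptor families, Cnr1, the cannabinoid receptor of nerve terminals, read 10.63, 10.71 and 10.84 (percentile 86.4), whereas the opioid receptors Oprd1 and Oprm1 had medians of 5.59 and 3.97 and Oprk1 passed on none. Cnr2, the cannabinoid receptor of immune cells, passed on 7 arrays and Oprl1 on 1. Purinergic receptors had the smallest share of the 18 receptor lists, 7 of 17 on all 8 and 7 on none (median percentile 23.7); P2ry1 read 6.60, 6.78 and 6.92 and the adenosine receptor Adora1 6.02, 6.21 and 6.28, and P2rx7, P2ry13, P2ry14 and P2rx1 passed on none. Of 29 neuropeptide receptors 21 passed, and 11 reached the stricter limit. The somatostatin receptors Sstr2 and Sstr1 were brightest, at 12.13, 12.20 and 12.26 (percentile 93.1) and 10.18, 10.25 and 10.29 (percentile 83.7), whereas Sstr3 and Sstr5, named after their values were seen, had medians of 5.80 and 4.68. Also among the brightest were the neurotensin receptors Ntsr1 (8.52) and Ntsr2 (8.28). The thyrotropin-releasing hormone receptor Trhr and the substance P receptor Tacr1 passed on none. Of growth factor receptors 20 of 23 passed, with Ntrk2, the receptor for BDNF, at 12.92, 12.95 and 13.05 (percentile 95.6), Igf2r at 11.07, 11.15 and 11.22 (percentile 88.5), Ntrk3, the receptor for NT-3, at 10.59, 10.72 and 10.77 (percentile 86.4) and the neurturin receptor Gfra2 at 10.11, 10.20 and 10.38 (percentile 83.6), and Fgfr4, Erbb4 and Erbb3 on 2, 3 and 5 arrays. The stricter limit was reached by 13 of 23 growth factor, 1 of 6 opioid and cannabinoid and 2 of 17 purinergic receptor genes.

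**Figure D4:**
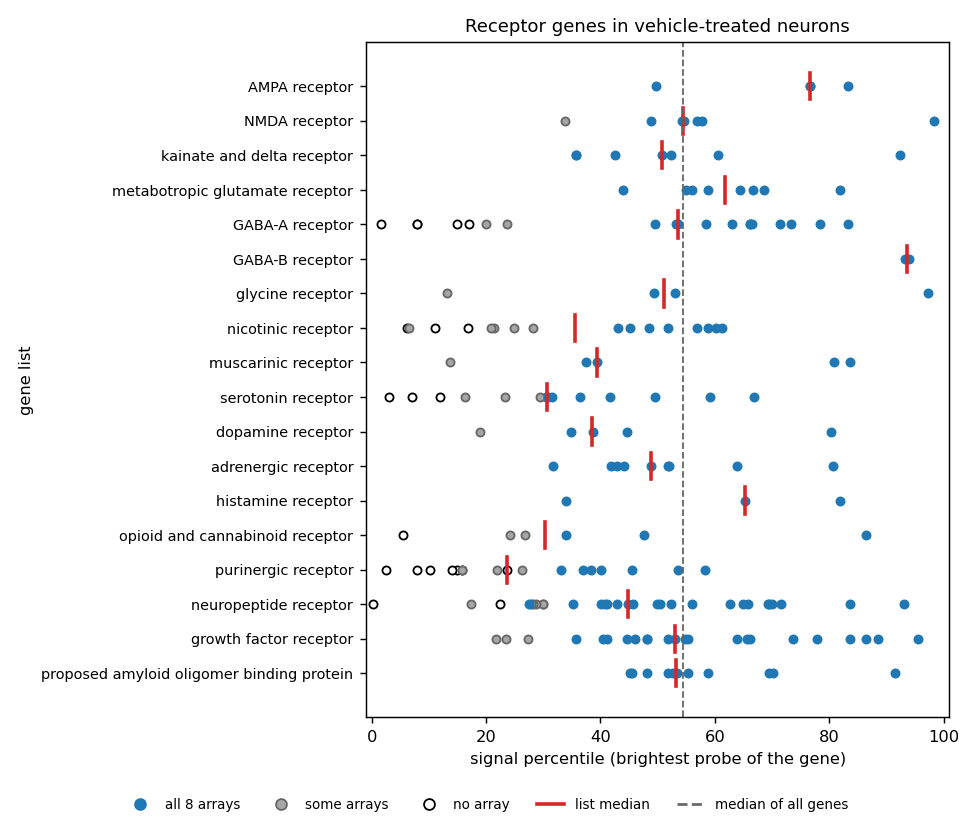
Signal percentile of each measured member (points) of the 18 receptor lists, with filled points for genes well above background on all 8 arrays, grey for some arrays and open for none, a bar at the list's median and a dashed line at 54.4, the median of all genes with a symbol. The GABA-B pair lies above percentile 93, and the purinergic list has its median at 23.7 with 7 open points.

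Voltage-gated channels came next. Of the sodium channel genes, which start the action potential, 11 of 13 passed: Scn3b, an auxiliary subunit, read 12.56, 12.63 and 12.65 (percentile 94.5), Scn2a and Scn3a, pore subunits of the embryonic and neonatal brain, 10.29, 10.33 and 10.48 (percentile 84.3) and 8.62, 8.78 and 8.79 (percentile 73.5), and Scn1a 7.78, 7.85 and 7.96 (percentile 66.5). Scn10a, of sensory neurons, passed on none. Of the calcium channel genes 15 of 17 passed, led by the auxiliary subunits Cacnb3 (11.93, 11.94 and 12.004, percentile 92.1), Cacna2d1 (11.46, 11.50 and 11.57, percentile 90.2) and Cacnb1 (11.05, 11.15 and 11.28, percentile 88.5) and the T-type pore Cacna1i (10.03, 10.24 and 10.45, percentile 83.7), while Cacna1f, of the retina, passed on none. Voltage-gated potassium channels, which end the action potential, passed for 33 of 38, with Kcnh3 at 10.88, 10.97 and 11.03 (percentile 87.6), Kcna1 at 10.47, 10.57 and 10.60 (percentile 85.5) and Kcnd2 at 10.45, 10.55 and 10.63 (percentile 85.4), and Kcng4 and Kcnh5 on none. Of the HCN channels, which pass the hyperpolarisation-activated current, Hcn3, Hcn4 and Hcn2 passed, with medians of 8.26, 7.59 and 6.44. Of the potassium channels gated by calcium or sodium 6 of 7 passed, with Kcnma1, the large-conductance channel, at 7.91, 8.14 and 8.23 and Kcnn4, of blood cells and epithelia, on none. Under the stricter limit 6 of 13 sodium, 10 of 17 calcium, 21 of 38 voltage-gated potassium and 3 of 7 calcium- or sodium-gated potassium channel genes remained. The sodium channels were then below the 52.6% of all genes.

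Inward rectifiers passed for 8 of 15, below the share of all genes, and 5 reached the stricter limit. Kcnj3, a channel opened by G proteins, read 9.46, 9.58 and 9.80 (percentile 79.7) and Kcnj4 8.49, 8.60 and 8.70 (percentile 72.4), whereas 5 passed on no array, among them Kcnj16, Kcnj8 and Kcnj15, and Kcnj10, the main potassium channel of mature astrocytes, named after its values were seen (1.28, 2.38 and 2.97). Two-pore channels, which set the resting potential, passed for 10 of 13, with Kcnk12 at 11.83, 11.86 and 11.92 (percentile 91.8), Kcnk1 at 10.51, 10.58 and 10.66 (percentile 85.6) and Kcnk2 at 9.50, 9.60 and 9.64 (percentile 79.6). TRP channels passed for 10 of 18 (median percentile 30.6), of which 3 reached 3 times the local background, Trpv2 (10.21, 10.27 and 10.36), Trpc1 (8.89, 9.00 and 9.13) and Trpc4 (8.42, 8.57 and 8.63), and Trpa1 and Trpv3 passed on none. Asic1, Asic2 and Asic4, channels opened by acid, had medians of 7.58, 6.22 and 5.48, and Asic3 passed on 3 arrays. Of the chloride channels and cotransporters 11 of 13 passed. Slc12a5, which pumps chloride out of neurons as GABA becomes inhibitory, read 11.18, 11.25 and 11.29 (percentile 88.9), and its counterpart Slc12a2, which brings chloride in and was named after its values were seen, read 8.03, 8.09 and 8.18 (percentile 68.4).

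**Figure D5:**
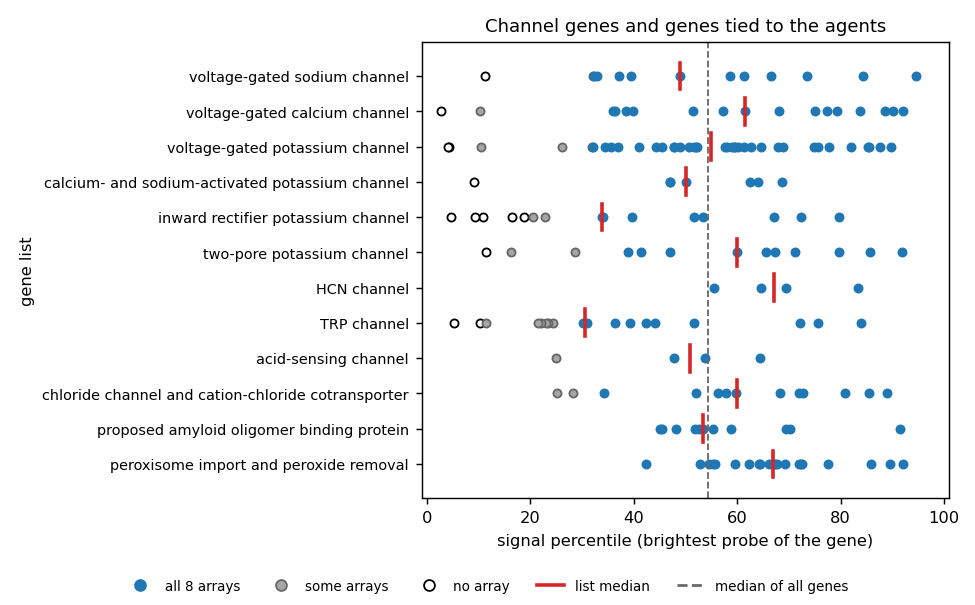
Signal percentile of each measured member (points) of the 10 channel lists and of the 2 lists tied to the agents of the study, with filled points for genes well above background on all 8 arrays, grey for some arrays and open for none, a bar at the list's median and a dashed line at 54.4. Both lists tied to the agents have filled points only.

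Genes tied to the agents used elsewhere in the study were measured here in the vehicle state, and whether the agents act on them was not tested. Genes of peroxisome import and peroxide removal passed for 21 of 21 (100%, against 71.1% of all genes), with a median percentile of 67, and 19 reached 3 times the local background. Abcd3, a transporter of the peroxisomal membrane, read 11.87, 11.96 and 11.996 (percentile 92.1), the docking factor Pex14 11.30, 11.37 and 11.43 (percentile 89.6), and Pex5, the receptor that imports proteins ending in SKL, 10.54, 10.63 and 10.71 (percentile 85.9). Cat, the rat's own catalase, named after its values were seen, read 7.16, 7.29 and 7.38 (percentile 62.2). Proteins proposed in the field to bind amyloid-beta oligomers passed for 11 of 11, and 8 reached 3 times the local background. The median percentile of this list was 53.3, against 54.4 for all genes. The prion protein gene Prnp read 11.74, 11.79 and 11.92 (percentile 91.5), Epha4, an ephrin receptor, 8.25, 8.30 and 8.36 (percentile 70.2), Lrp1, a clearance receptor, 8.15, 8.24 and 8.32 (percentile 69.5) and the glutamate receptor Grm5 6.73, 6.84 and 6.96 (percentile 58.9). Fcgr2b, an immunoglobulin receptor, and Ager, the receptor for glycated proteins, lay lowest, at 4.93, 5.17 and 5.47 (percentile 45.1), another probe averaging 1.06, and 4.92, 5.27 and 5.52 (percentile 45.4).

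The vehicle channels were then compared with each other. The median signal was 104 to 111.5 over a local background of 26 to 29, between 71.2% and 77.0% of probes were well above background, 0 to 5 of 308 negative control spots were, and 0 spots were saturated. On 17230 probes with at least 2 spots, the difference between 2 arrays was computed from the first and again from the second spot of each probe. The r between these differences, taken over probes that are not independent of each other, lay between -0.00042 and 0.0586 for the 28 pairs. By the limit of 0.1, all pairs counted as 1 sample, so vehicle was treated as 1 sample hybridised 8 times. Over all these probes the SD between 2 channels was at most 1.06 times that given by the spots. Whether the vehicle came from 1 pool of RNA is not stated in the labels, so whether the triplets above hold any spread between cultures is not known. On 5707 probes with a log2 signal above 8, a check chosen after seeing the data, the same r was 0.0596 to 0.484, 5 of 28 pairs lay below 0.1, and the SD ratio was 1.06 to 1.70. Among bright probes the channels therefore held reproducible differences, and the low r over all probes does not show that the channels are alike. The median SD over arrays was 0.613 for genes below a log2 signal of 4 and 0.0511 above 12, so the low values are the least precise.

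The vehicle partners of the single treatments (4 arrays) were set against those of the sequential ones (4 arrays), which also lay in another row of the slide, so that row, hybridisation and vehicle RNA cannot be told apart. In limma with Benjamini-Hochberg adjustment, 13 of 21120 genes and unnamed accessions passed 0.05 (0.0616%), all higher beside the sequential treatments, and 5 had a symbol. The SE and p-values here rest on the spread between arrays, which may be technical, since the vehicle channels were counted as 1 sample. The factor gene Pitx1 read 7.76 beside the single and 8.25 beside the sequential treatments (log2 difference 0.49 ± 0.05, SE, limma adjusted p = 0.0261, higher in 4 of 4 arrays). The olfactory receptor gene Or10j3 (0.67), Spopfm2l2 (0.41), Pdzd7 (0.49) and Fhl3 (0.52) were the others, and in each the 4 arrays of one row lay above the 4 of the other. None of 536 listed genes passed in limma, and at a share of 0.0616% over all tested this does not set them apart. The lowest limma adjusted p among them was 0.0868. Without adjustment 55 of the 536 lay under 0.05 in limma, against 2218 (10.5%) of all 21120 tested. Listed genes did pass under other settings: 3 with normexp background correction (Trpm5, Slc6a2 and Col1a1), 5 with scaling to the 75th percentile (Trpm5, Scn11a, Aqp1, Slc6a2 and Ager), 1 without ADDL 1 (Scn11a) and 1 without ADDL 2 (Trpm5). They were all higher beside the sequential treatments, and they were named after their values were seen. The number of spots at or below their local background moved with the row, from 3141 to 5008 per array beside the single and from 912 to 2354 beside the sequential treatments. The 13 lay between percentiles 17.3 and 67.7. Without background subtraction 19 passed, and whether the background bears on these calls was not tested. The count was 0 without CAT-SKL 2, CAT-SKL+ADDL 2, ADDL+CAT-SKL 1 or ADDL+CAT-SKL 2, 3 without CAT-SKL 1, 5 without CAT-SKL+ADDL 1, 6 without ADDL 2 and 14 without ADDL 1. It was 46 with normexp, 122 with scaling to the 75th percentile and 3 with Agilent's processed signal.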

How the data were processed

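The deposited scanner files hold, per spot and channel, intensity (median pixel brightness), local background intensity and flags, written by Agilent Feature Extraction 11.5 per the submitters' processing notes and the file headers. The authors deposited them unnormalised. Each deposited flag is a score of 0 or 1 per spot. Probe coordinates are not given, because the file headers name the build rn4 and the reference tables are of GRCr8. From these files, the Cy3 median signal minus local background was quantile-normalised in limma 3.58.1 (R 4.3.3), floored at 1 and put on the log2 scale. Values of spots that share a probe were averaged, without control spots and without the 538 to 817 spots per array that carry an outlier flag. Accessions without version matched RefSeq symbols (GRCr8) for 17998 of 30367 probes, giving 15154 genes, each represented by its brightest probe by mean signal. The number of arrays given for a gene is that of its single probe that was well above background on the most arrays. The 55 lists held 688 genes, 621 of them measured. The members and lists were chosen with earlier results of these data known. Named were the 5 markers, the 30 brightest genes, up to 4 members from each end of each list by percentile, all members of lists of 8 or fewer, and the genes with the smallest p in the comparison of vehicle channels. Not all genes that the rule selects are printed. The comparison of vehicle channels used lmFit and eBayes with Benjamini-Hochberg adjustment, two-sided, over genes well above background on at least 2 of 8 arrays, and was tested on simulated data. Its p-values rest on the spread between arrays, which may be technical. The number of arrays limits the precision. The deposited series table of log ratios was not used.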

Additional observations from a re-analysis of the deposited data

Results flagged for a closer look

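In 21 of 329 sets of 8 array values (323 genes named here and 6 measures of array quality), 1 array stood apart from the other 7 by more than Dixon's test at 95% allows. Chance gives about 1 in 20 such sets, and 21 of 329 is 6.38%. On CAT-SKL+ADDL 2, 4 genes were lowest, Erbb3 (2.38), Grm4 (9.70), Kcnma1 (7.91) and Pde10a (10.86), and 2 were highest, Lhx2 (10.35) and Nr2f1 (10.16). This array also had the most spots with outlier flags, 817. On CAT-SKL+ADDL 1, Cnr2 (2.09) and Slc32a1 (9.39) were lowest and Hoxd4 (5.21) and Otx1 (10.28) highest. On ADDL 1, Drd3 (1.17), Kcna1 (10.47) and Lhx6 (6.65) were lowest, and 5 negative control spots were well above background, against 0 to 2 on the other arrays. On CAT-SKL 1, the marker Pdgfra was highest (7.12, next array 7.02) and Ntrk3 lowest (10.59). The remaining values were Ugt8 (2.82 on the next array) at 0.953 on CAT-SKL 2, Scn2a at 10.48 on ADDL 2, Rpl41 at 16.74 on ADDL+CAT-SKL 1, Gad2 at 5.54 on ADDL+CAT-SKL 2, and Trhr at 0.807 on ADDL+CAT-SKL 2 with 0 on the other arrays. Most of these gaps were small on the log2 scale, such as 0.05 for Lhx2 and 0.069 for Kcna1.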

How the results depend on the processing

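The number of genes that passed in limma between the vehicle channels of the 2 slide rows was 13 and depended on the processing. It was 46 with normexp background correction, of which 45 were higher beside the sequential treatments and 1 lower, and 34 with normexp and genes well above background on all 8 arrays, a choice made after seeing the data, with 3 and 2 listed genes among them. It was 122 with each array scaled to its 75th percentile, 5 of them listed, and 3 with Agilent's processed signal. With the replicate number as a block (replicate block) it was 0, with 2118 genes at an unadjusted p below 0.05 in limma, against 2218 without the block. The labels' numbers did not pair the arrays across rows: r of deviations from the row means was -0.0458 to 0.0286 for 8 pairs of the same number. Leaving out 1 array gave 0 to 14 genes. Of the 30 genes with the brightest probes, 18 were the same when the probes of a gene were averaged and 28 to 30 under the other settings. The percentile of Gad1 was 51.3 when its probes were averaged, and that of Slc1a3 was 79.5. Listed genes well above background on all 8 arrays numbered 459, and 303 reached 3 times the local background; under that limit 28 of 55 lists lost members by more than 1.5 times. The count of genes with a symbol was 7969 under that limit and 12637 with the flag for a positive and significant signal. Of the 28 pairs of vehicle channels, 28 lay below the limit of 0.1. With normexp 9 did, and 5 did on probes with a log2 signal above 8, both added after seeing the data. No culture replicates are known from the labels, and genes below a log2 signal of 4 lie near the background.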

Other observations

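Over all lists, 459 of 621 measured genes (73.9%) were well above background on all 8 arrays, against 71.1% of all genes with a symbol. At 3 times the local background the order turned, with 303 (48.8%) of the listed genes against 7969 (52.6%) of all genes with a symbol. Among cell classes the list medians ran from percentile 16.8 (serotonergic neurons) to 86.6 (general neuronal genes).

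Probes of the same gene often differed. For 2605 genes with a symbol and several probes, the brightest and dimmest differed by a median of 2.04 on the log2 scale. In 210 of them (8.06%) the brightest was well above background on all 8 arrays and another on none, and in 691 the probes lay within 1 of each other. Among the cell class markers, Mag, S100b and Opalin were such genes, with medians of 7.38, 8.19 and 5.95 on the brightest probe and means of 2.04, 2.34 and 0.28 on the dimmest. Which probe reads the transcript of the culture was not tested.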
